A study of Homo sapiens with 62 samples.

Results

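RNA levels at 4 h were compared with those at 1 h in human embryonic stem cells (hESC) of the established line WIBR3. The comparison used 8 polyA RNA-seq libraries of the 62 in the series. All 8 were of wild-type (WT) cells and have PN96 in their titles. Their treatment label is NT96 without and PN96 with PF-127; the labels explain neither name, so whether the arms differ in more than PF-127 cannot be told. There were 2 libraries without and 2 with PF-127 (Pluronic F-127, a polymer of linked blocks whose solutions gel on warming) at each time, so each time had 4 libraries. The labels give times of 0, 1, 4 and 24 h and name no event at 0 h, so the hours are used here only as labels of the samples. Whether paired libraries are from separate cultures is not stated, and the p-values therefore measure the spread between these libraries, which may be technical. The design text of the series names the function of PF-127 in hESC as its question; the change with time, shared by both arms, is what is described here.

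Levels are the authors' deposited TPM (a transcript share scaled to a fixed total), in which each gene is divided by its length and each library is scaled to the same total. Changes came from limma, a linear model fitted across all genes with a shared estimate of spread, on log2(TPM + 1) with a term for PF-127. A fold change is taken from that scale, which understates the change of genes with few TPM. A gene is said to have risen or fallen where its p-value, after Benjamini-Hochberg adjustment for every gene in the fit, was under 0.05. Of 37415 genes, 18372 reached 1 TPM in at least 2 of the 8 libraries and were tested. Sequencing depth cannot be read from TPM and is unknown here. Between 16989 and 17216 genes reached 1 TPM per library, and correlations of log2(TPM + 1) were 0.986 to 0.989 within a group and 0.971 to 0.975 between times. A level given with ± is the mean and SD over the 4 libraries of a time, both arms together, and a log2 change is given with its standard error. The first principal component held 46.2% of the variance and separated all 4 libraries of 1 h from all 4 of 4 h. On the second component, with 12.7%, replicate 2 with PF-127 at 4 h stood apart at 30.2, with the other 7 libraries between -19.9 and 3.80. Of 10 hESC marker genes, 9 reached a mean of 1 TPM at both times and ZFP42 (REX1) did not, and the summed level of the 10 was 5575 to 5826 TPM at 1 h and 5592 to 5869 TPM at 4 h.

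Cultured cells answer a disturbance in waves. Immediate early genes such as FOS and EGR1 are switched on from transcription factors already present, and their RNAs are short-lived; the growth factor and actin pathways reach them through SRF. YAP and TAZ, coactivators that enter the nucleus when cells are spread or under tension, bind TEAD proteins and drive genes such as CCN1 and CCN2. Later waves include genes of metal and oxidant defence, of sterol synthesis under SREBP, and of amino acid shortage under ATF4. In hESC the Nodal and BMP pathways, which act through SMAD proteins, are kept in balance with the pluripotency factors OCT4 (POU5F1), SOX2 and NANOG.

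From 1 h to 4 h, 2560 genes rose, 13.9% of those tested, and 3738 fell, 20.3%. Counts of rises and falls in the gene lists below are to be read beside these shares. Among the largest falls were those of the YAP targets CCN2, CCN1 and AMOTL2 and of the transcriptional repressor HES1. The largest rises were those of metallothioneins, which bind zinc and other metals, with the stress gene DDIT4, the repressor HES4 and the receptor EPHA4 among the first 14. All 6298 called genes had the same direction of change in both arms. The calling rule nearly fixes this, since the fit averages the arms and counts a difference between them as spread. In 2471 genes, 13.4% of those tested, all 4 libraries of 4 h lay above all 4 of 1 h, and in 3678, 20%, they lay below; of the called genes this held for 2201 and 3167. Lack of overlap was a condition for the 14 largest rises and the 14 largest falls named here. For those genes it is therefore no added support. Most changes were small. At least 2-fold were 245 rises and 115 falls, at least 4-fold were 16 rises and 10 falls, and 5 falls and 0 rises were at least 8-fold.

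The median log2 change of all genes tested was -0.05, and it was 0.00046 after each library was rescaled by a size factor. Rescaling turned the split of calls to 3147 rises and 2753 falls, so that 53.3% of the calls were rises against 40.6% without it. With the mRNAs encoded in the mitochondrial genome left out of TPM, 49.7% were rises. These mRNAs made up 26.8 ± 2.14% (SD, n = 4) of TPM at 1 h and 28.8 ± 0.852% at 4 h, a difference of 1.94 percentage points (two-sided exact permutation test, p = 0.2, with 0.0286 the smallest p possible for 4 against 4). Without replicate 1 of the libraries without PF-127 at 1 h the difference was 2.85 percentage points (exact p = 0.0286). Small falls therefore depend on how libraries are scaled, and counts under rescaling are given below for each group of genes where they differ.

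**Figure D1:**
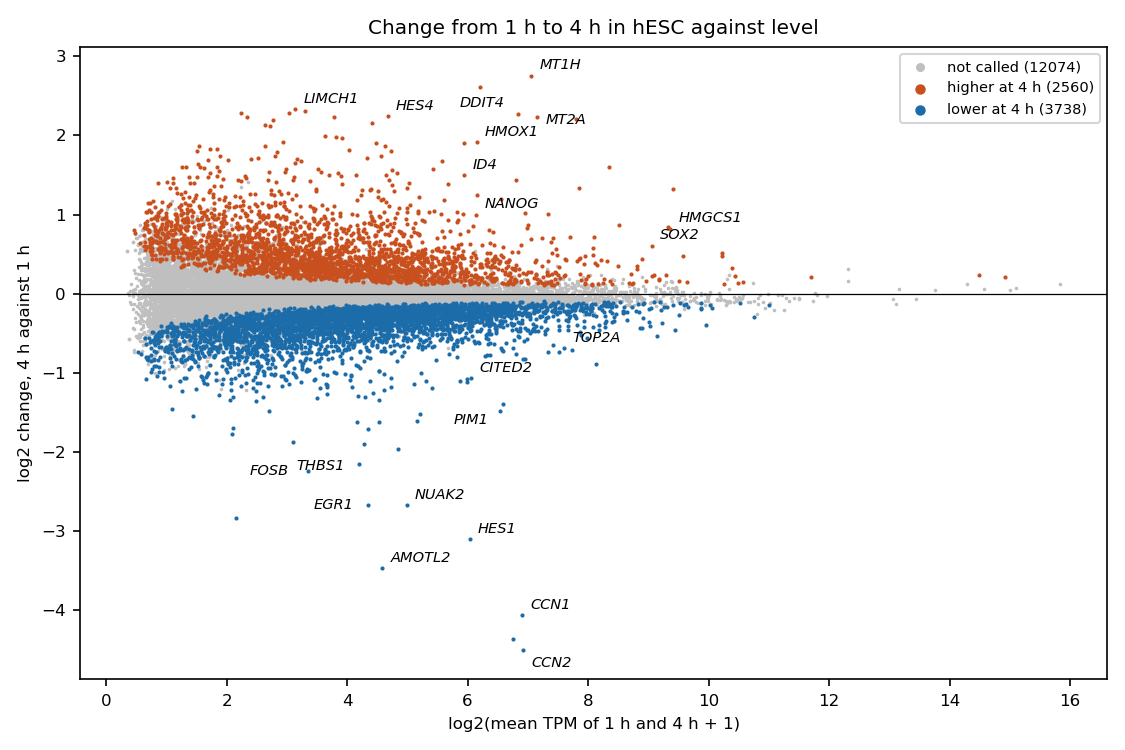
Log2 change from 1 h to 4 h (y axis) against the log2 of the mean TPM plus 1 (x axis) for all 18372 genes tested, with 2560 higher at 4 h in orange, 3738 lower in blue and the rest in grey. CCN2, CCN1, AMOTL2 and HES1 lie below all other labelled genes, at log2 changes of -4.51 to -3.10, and no rise passes 2.75.

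The YAP targets gave the deepest falls. CCN2 (connective tissue growth factor, a secreted matrix protein) was at 242 and 249 TPM without and 212 and 223 TPM with PF-127 at 1 h, and at 7.44 and 13.7 TPM without and 8.69 and 7.96 TPM with it at 4 h. Every library of 1 h was far above every library of 4 h, and the fall was 22.8-fold (log2 change -4.51 ± 0.15, limma adjusted p = 1.02e-06). CCN1 (CYR61, a related matrix protein, at chr1:85580761-85583962 on the plus strand of GRCh38 in GENCODE 29) was at 236 and 231 TPM without and 219 and 217 TPM with PF-127 at 1 h, and at 14.8 and 13.1 TPM without and 10.7 and 12 TPM with it at 4 h, a 16.7-fold fall with no overlap (log2 change -4.06 ± 0.06, adjusted p = 2.40e-08). AMOTL2, an angiomotin that holds YAP in the cytoplasm and is itself a YAP target, fell 11.1-fold from 42.9 ± 2.13 to 2.99 ± 0.532 TPM with no overlap (adjusted p = 7.06e-07). The kinase NUAK2 was at 48.6 to 57.4 TPM at 1 h, and at 9.47 and 10.7 TPM without and 5.35 and 5.79 TPM with PF-127 at 4 h, 6.40-fold lower (adjusted p = 7.05e-06). The arm with PF-127 was the lower one at 4 h in NUAK2, and both arms were below all libraries of 1 h. LATS2, the kinase that phosphorylates YAP, fell 2.18-fold from 11.8 ± 1.06 to 4.92 ± 0.746 TPM. AJUBA, a LIM protein that restrains LATS kinases, fell 2.12-fold from 13.9 ± 0.533 to 6.01 ± 0.630 TPM.

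Of 17 YAP targets tested, 6 fell, all at least 2-fold, and 1 rose (6 and 2 after rescaling). The median log2 change of the list was -0.11, against -0.05 for all genes tested, and 10 members did not pass. Among them AXL, a receptor kinase, was at 14.6 ± 0.881 TPM at 1 h and 15.1 ± 1.42 TPM at 4 h, and PTPN14, a phosphatase that binds YAP, at 16.1 ± 1.09 and 15.5 ± 0.868 TPM. The 1 rise was that of F3 (tissue factor, which starts blood clotting), from 5.13 ± 0.522 TPM to 26.3 and 27.1 TPM without and 19.0 and 20.3 TPM with PF-127 at 4 h, 3.91-fold (log2 change 1.97 ± 0.08, adjusted p = 2.67e-06). THBS1, a matrix protein also reported as a YAP target but outside the list, fell 4.44-fold from 28.8 ± 2.75 to 5.77 ± 1.2 TPM. The antisense RNAs CCN2-AS1 and THBS1-AS1 fell 20.6-fold and 3.09-fold. Whether the libraries kept strand is not stated, so reads of these RNAs and of their partner genes cannot be told apart.

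Levels at 0 and 24 h are set beside these falls as values only. The means at 0, 1, 4 and 24 h (n = 4 each) were 106 ± 6.26, 232 ± 16.9, 9.45 ± 2.88 and 21.5 ± 1.95 TPM for CCN2. For CCN1 they were 58.0 ± 2.63, 226 ± 9.32, 12.7 ± 1.75 and 18.2 ± 1.76 TPM. In both genes 1 h was the highest of the 4 times, and the level at 4 h was below that at 0 h. AMOTL2, at 8.09 ± 0.532 TPM at 0 h and 7.44 ± 0.115 TPM at 24 h, had the same order of 1 h and 4 h. These levels are a description, since the comparisons of 1 h with 0 h and of 4 h with 1 h share the libraries of 1 h.

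The promoter of CCN2 is shown because it carries the motif that TEAD proteins bind. The sequence is RefSeq's for GRCh38.p14, chr6:131951323-131951622 on the minus strand, 5′ to 3′, from 250 bases before to 50 after the gene start. Capitals mark the TEAD element GGAATG, of which there are 3, at -169 to -164, -104 to -99 and -95 to -90, counted with the start as 0.
CCN2: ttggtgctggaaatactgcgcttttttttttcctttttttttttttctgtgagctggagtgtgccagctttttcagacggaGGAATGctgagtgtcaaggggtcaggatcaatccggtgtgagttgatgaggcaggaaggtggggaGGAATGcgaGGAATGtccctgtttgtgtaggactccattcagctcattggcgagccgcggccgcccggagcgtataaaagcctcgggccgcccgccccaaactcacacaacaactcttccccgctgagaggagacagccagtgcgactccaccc
GGAATG on either strand was found in 4 of 12 YAP target promoters, in 11 of 53 promoters (20.8%) of genes that fell at least 2-fold, in 10.8% of 11310 promoters of tested genes and in 14.1% of all 27305 promoters in the table. A match is a run of letters and not a measured binding site, and this motif was chosen after the values were seen. NUAK2 had 2 such matches, THBS1 had 1 and AMOTL2 had 0 in this window. LATS2, which fell, also had a match, and AJUBA, which fell, had none. PTPN14, which did not pass, had a match, and F3, which rose, had none.

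**Figure D2:**
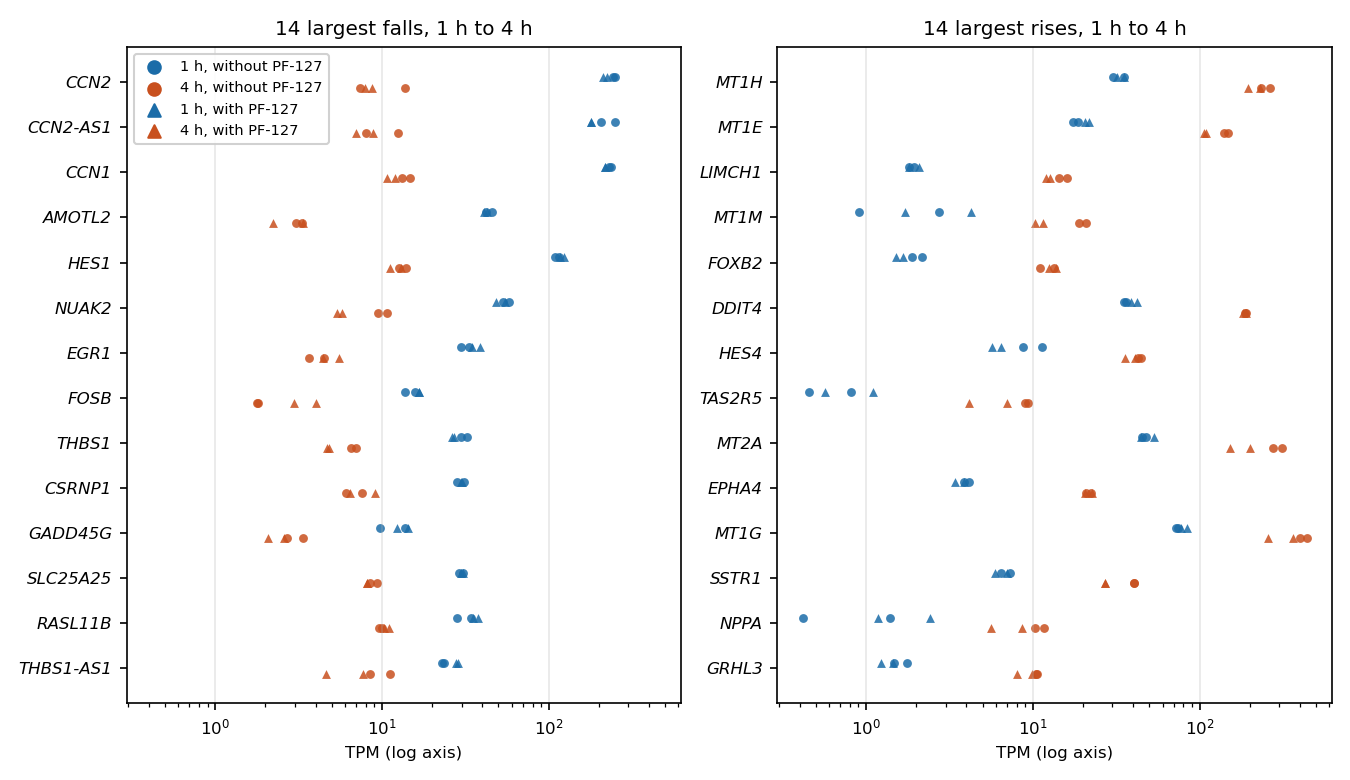
TPM of the 14 largest falls (left) and the 14 largest rises (right) in each of the 8 libraries, on a log axis, with blue for 1 h, orange for 4 h, circles without and triangles with PF-127. In each of the 28 genes the 4 libraries of 1 h and the 4 of 4 h do not overlap, which the rule for naming required.

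Immediate early genes went both ways. EGR1, a zinc finger factor, was at 30.0 and 33.3 TPM without and 38.8 and 34.9 TPM with PF-127 at 1 h, and at 4.52 and 3.64 TPM without and 5.54 and 4.45 TPM with it at 4 h. The times did not overlap, and the fall was 6.38-fold (log2 change -2.67 ± 0.09, adjusted p = 1.02e-06). FOSB, an AP-1 subunit, fell 4.73-fold from 15.7 ± 1.39 TPM to 1.77 and 1.80 TPM without and 2.97 and 4.01 TPM with PF-127 (adjusted p = 1.80e-05). FOS, another subunit, fell 2.55-fold from 32.0 ± 4.48 to 11.9 ± 1.63 TPM (limma adjusted p = 1.14e-05). In both, every library of 4 h was below every library of 1 h. KLF6, a Kruppel-like factor, fell 2.15-fold from 53.1 ± 1.28 to 24.2 ± 2.05 TPM, and the phosphatase DUSP1, which switches off MAP kinases, 1.59-fold to 9.84 ± 1.56 TPM. MYC fell 1.37-fold from 50.5 ± 2.21 to 37.0 ± 5.17 TPM (limma adjusted p = 0.00472).

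In the opposite direction, ATF3, a stress-induced repressor, was at 12.6 to 16.2 TPM at 1 h, and at 33.9 and 35 TPM without and 28.9 and 29.1 TPM with PF-127 at 4 h, 2.05-fold higher (log2 change 1.04 ± 0.10, adjusted p = 2.04e-04). JUNB, an AP-1 subunit, rose 1.87-fold from 7.06 ± 0.916 to 14.1 ± 2.21 TPM. JUN, its relative, rose 1.32-fold from 58.2 ± 2.92 to 77.4 ± 7.93 TPM. Of the listed FOS and JUN genes, FOS and FOSB thus fell, JUN, JUNB and JUND rose, and FOSL1 did not pass. Of 26 immediate early genes tested, 7 rose and 9 fell (7 and 7 after rescaling), with a median log2 change of -0.18. Leaving out 1 library at a time gave 5 to 7 rises and 7 to 10 falls.

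Genes outside the lists were also among the 14 largest falls. CSRNP1, a nuclear factor, fell 3.74-fold from 29.8 ± 1.07 to 7.30 ± 1.38 TPM (limma adjusted p = 1.80e-05). SLC25A25, a mitochondrial carrier of ATP and phosphate, fell 3.27-fold from 30.0 ± 0.717 to 8.5 ± 0.560 TPM (limma adjusted p = 1.02e-06), and its promoter holds a cyclic AMP element, TGACGTCA, at -200 to -193, as do 3.13% of promoters of tested genes. In both genes the times did not overlap, which the rule for naming required. GADD45G, a growth arrest gene, fell 3.66-fold from 12.5 ± 2.10 to 2.69 ± 0.525 TPM. RASL11B, a small GTPase, fell 3.09-fold from 33.9 ± 3.99 to 10.2 ± 0.615 TPM. The next pair of genes was chosen after their values were seen. The kinase PIM1 was at 134 to 138 TPM at 1 h and 40.7 to 52.6 TPM at 4 h, a 2.81-fold fall with no overlap. PPP1R15A (GADD34, which restores translation after stress) fell 3.04-fold from 53.1 ± 1.97 to 16.8 ± 1.21 TPM.

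The promoter of EGR1 is shown because it holds SRF's motif, the CArG box, more than once. The window is chr5:138465229-138465528 on the plus strand (GRCh38.p14, RefSeq), and capitals mark the 2 CArG boxes, CCATATTAGG at -105 to -96 and CCATATATGG at -83 to -74.
EGR1: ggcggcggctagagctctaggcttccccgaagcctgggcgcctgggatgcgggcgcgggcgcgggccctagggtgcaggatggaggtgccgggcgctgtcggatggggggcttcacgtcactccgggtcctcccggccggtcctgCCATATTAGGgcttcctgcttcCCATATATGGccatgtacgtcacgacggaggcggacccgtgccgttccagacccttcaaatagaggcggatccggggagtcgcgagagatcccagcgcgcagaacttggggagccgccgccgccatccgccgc
A CArG box (CC, 6 bases that are A or T, and GG) was found in 2 of 19 immediate early promoters, 5 of 13 promoters of actin and MRTF-SRF targets and 1.04% of promoters of tested genes. Falls of actin and MRTF-SRF targets were small and depended on scaling and on single libraries. Of 16 tested, 4 fell and 0 rose, with a median log2 change of -0.10, and after rescaling 0 fell and 1 rose. ACTB, cytoplasmic actin, was at 3489 ± 118 TPM at 1 h and 3278 ± 425 TPM at 4 h (adjusted p = 0.351). TAGLN, an actin-bundling protein, was at 50.2 ± 3.15 and 43.9 ± 4.46 TPM (adjusted p = 0.1). The 4 falls, CNN2, MYH9, MYL9 and TPM1, were of at most 1.19-fold, and 0 fell without replicate 1, or without replicate 2, with PF-127 at 1 h. The count was 1 or 2 without replicate 2 of the libraries without PF-127 at 1 h or at 4 h or without either library with PF-127 at 4 h.

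ERK feedback and target genes moved in both directions. PHLDA1, a pleckstrin-domain protein induced by growth factors, rose 2.52-fold from 17.1 ± 0.811 to 44.8 ± 4.45 TPM (log2 change 1.33 ± 0.07, adjusted p = 1.14e-05). The Sprouty genes, inhibitors of receptor kinase signalling, rose together. SPRY1 rose 1.80-fold from 5.69 ± 1.05 to 11 ± 0.492 TPM. SPRY2 rose 1.68-fold from 26.2 ± 1.63 to 44.8 ± 4.84 TPM. SPRY4 rose 1.38-fold from 35.3 ± 0.898 to 49.1 ± 3 TPM. In all 3 the libraries of 4 h were above those of 1 h. The ETS factors ETV5 and ETV1 fell 1.67-fold and 1.51-fold, and IL17RD (Sef), an FGF signal inhibitor, fell 1.73-fold from 17.6 ± 0.679 to 9.79 ± 1.24 TPM. Of 13 such genes tested, 5 rose and 6 fell, and DUSP6, the ERK phosphatase, was at 10.2 ± 1.53 TPM at 1 h and 11.1 ± 0.978 TPM at 4 h (adjusted p = 0.432). Of 12 NF-kB and cytokine genes, 3 rose and 4 fell (4 and 4 after rescaling), the first fall by adjusted p being NFKBIZ, a nuclear IkB protein, 1.99-fold from 7.23 ± 0.268 to 3.12 ± 0.0553 TPM (limma adjusted p = 3.82e-05). The 3 rises in that list became 1 when any 1 of the 4 libraries with PF-127 was left out.

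The Notch effectors HES1 and HES4 changed in opposite directions. HES1, a basic helix-loop-helix repressor, was at 109.5 and 116 TPM without and 123 and 116 TPM with PF-127 at 1 h, and at 12.6 and 13.9 TPM without and 13.1 and 11.2 TPM with it at 4 h. No library of 4 h came near those of 1 h, and the fall was 8.59-fold (log2 change -3.10 ± 0.07, adjusted p = 2.13e-07). HES4, a repressor of the same family, was at 8.76 and 11.4 TPM without and 6.49 and 5.68 TPM with PF-127 at 1 h, and at 44.5 and 42.5 TPM without and 41.1 and 35.8 TPM with it at 4 h. All libraries of 4 h were above all of 1 h, and the rise was 4.75-fold (log2 change 2.25 ± 0.12, adjusted p = 1.14e-05). At 0 and 24 h both were low, with HES1 at 5.91 ± 1.07 and 6.72 ± 1.24 TPM and HES4 at 2.58 ± 0.494 and 1.04 ± 0.515 TPM. HES1 thus had its highest mean of the 4 times at 1 h and HES4 at 4 h.

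Both promoters carry the RBPJ element GTGGGAA, the site of Notch's DNA-binding partner, and are shown for that reason. HES1 lies at chr3:194135898-194136197 on the plus strand and HES4 at chr1:1000048-1000347 on the minus strand (GRCh38.p14, RefSeq), with the element in capitals at -85 to -79 in HES1 and at -77 to -71 in HES4.
HES1: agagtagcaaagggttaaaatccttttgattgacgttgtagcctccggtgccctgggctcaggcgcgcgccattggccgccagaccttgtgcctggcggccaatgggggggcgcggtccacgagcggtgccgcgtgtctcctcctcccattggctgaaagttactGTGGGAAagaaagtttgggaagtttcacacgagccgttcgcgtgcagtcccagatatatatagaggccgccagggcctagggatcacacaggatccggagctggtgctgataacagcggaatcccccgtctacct
HES4: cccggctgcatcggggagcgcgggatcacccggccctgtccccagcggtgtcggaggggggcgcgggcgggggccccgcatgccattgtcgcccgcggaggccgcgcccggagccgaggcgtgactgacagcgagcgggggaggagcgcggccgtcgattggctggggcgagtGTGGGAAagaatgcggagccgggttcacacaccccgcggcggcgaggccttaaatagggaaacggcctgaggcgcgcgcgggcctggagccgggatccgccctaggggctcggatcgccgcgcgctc
The element, also added after the values were seen, occurs on either strand in 5.9% of promoters of tested genes. Of 9 Notch genes tested, 5 rose and 2 fell, with a median log2 change of 0.37. HEY2, another effector, rose 1.56-fold from 19.7 ± 1.15 to 31.2 ± 1.80 TPM. NRARP, a Notch feedback inhibitor, rose 1.37-fold from 58.5 ± 1.75 to 80.8 ± 8.25 TPM. The receptor NOTCH3 rose 1.37-fold from 50.8 ± 2.34 to 70.3 ± 7.53 TPM. In these genes, too, the times did not overlap. The inhibitory ligand DLL3 fell 1.58-fold from 5.77 ± 0.651 to 3.33 ± 0.855 TPM (limma adjusted p = 0.0117).

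Metallothioneins led the rises. MT1H, at chr16:56669814-56671129 on the plus strand (GRCh38, GENCODE 29), was at 30.3 and 35.2 TPM without and 35.4 and 31.8 TPM with PF-127 at 1 h, and at 264 and 234 TPM without and 230.5 and 194 TPM with it at 4 h. The times did not overlap, and the rise was 6.75-fold (log2 change 2.75 ± 0.09, adjusted p = 1.02e-06). MT1E rose 6.11-fold from 19.6 ± 1.87 TPM to 147 and 141 TPM without and 110.0 and 106 TPM with PF-127. MT2A rose 4.69-fold from 47.7 ± 4.08 TPM to 311 and 275 TPM without and 202 and 153 TPM with PF-127 (adjusted p = 7.70e-05). MT1G rose 4.62-fold from 76.9 ± 5.34 TPM to 439.8 and 399 TPM without and 364 and 258 TPM with PF-127. In all 4 of these genes each library of 4 h without PF-127 was above each with it. Of 9 MT1 and MT2 genes in the table, 8 were tested and 8 rose. MT1M, MT1F and MT1X rose 4.95-fold, 3.73-fold and 2.53-fold; MT1F and MT1X were chosen after their values were seen. The genes lie side by side on chromosome 16 and have nearly the same coding sequence, so how reads were shared among them is uncertain.

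SLC30A1 (ZnT1), the zinc exporter of the plasma membrane and, like the metallothioneins, a target of the metal-sensing factor MTF1, was also looked up after these values were seen. It was at 20.9 to 23.6 TPM at 1 h and 68.1 to 72.9 TPM at 4 h, 3.21-fold higher in libraries that did not overlap (log2 change 1.68 ± 0.05, adjusted p = 7.06e-07). SLC30A1 is no near copy of another gene. At 24 h MT1H was at 75.9 ± 14.8 TPM and SLC30A1 at 12.8 ± 4.33 TPM, against 30.4 ± 6.93 and 17.7 ± 1.88 TPM at 0 h.

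MT2A's promoter is shown for its metal elements, the motif of MTF1, written TGCACNC or TGCGCNC and read on both strands. The window is chr16:56608334-56608633 on the plus strand (GRCh38.p14, RefSeq), and capitals mark 8 matches, 3 of them on the strand opposite to the gene.
MT2A: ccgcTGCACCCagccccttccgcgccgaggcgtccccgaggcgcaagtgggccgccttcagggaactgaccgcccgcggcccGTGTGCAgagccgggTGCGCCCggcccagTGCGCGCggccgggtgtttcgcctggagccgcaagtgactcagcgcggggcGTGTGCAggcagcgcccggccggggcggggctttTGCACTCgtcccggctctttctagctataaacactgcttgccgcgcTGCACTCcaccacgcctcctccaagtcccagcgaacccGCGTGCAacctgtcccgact
The motif is short and common, being found at least 1 time in 38.4% of promoters of tested genes. It was found in 3 of the 3 metallothionein promoters that matched the RefSeq table, and in MT1H also 8 times. The motif was added after the values were seen.

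DDIT4 (REDD1), which restrains mTORC1 and is induced by several stresses, was at 36.2 and 35 TPM without and 41.9 and 39.1 TPM with PF-127 at 1 h, and at 191 and 188 TPM without and 189 and 183 TPM with it at 4 h. The 4 libraries of 4 h lay within a few TPM of each other and far above 1 h, a 4.84-fold rise (log2 change 2.28 ± 0.05, adjusted p = 2.13e-07). DDIT4 belongs to the ATF4 list, in which 11 of 19 tested genes rose and 1 fell (12 and 1 after rescaling), with a median log2 change of 0.16. STC2, a secreted glycoprotein, rose 2.01-fold from 39.0 ± 1.58 to 79.8 ± 7.62 TPM (limma adjusted p = 6.22e-06). The transcription factor CEBPB rose 1.73-fold from 18.5 ± 2.17 to 32.7 ± 3.11 TPM. The libraries of 4 h were the higher ones in both genes, without overlap. The pseudokinase TRIB3 rose 1.72-fold from 12.1 ± 1.16 to 22.0 ± 4.99 TPM. DDIT3 (CHOP), a stress-induced C/EBP factor, rose 1.58-fold from 24.1 ± 3.37 to 38.6 ± 4.39 TPM. CHAC1, which degrades glutathione, rose 1.54-fold to 68.5 ± 4.75 TPM. ATF4 itself was at 559 ± 31.5 TPM at 1 h and 543 ± 25.6 TPM at 4 h (adjusted p = 0.397). The ATF4 element TGATGCAA was found on either strand in 1 of 17 promoters of the list and in 0.486% of promoters of tested genes.

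Enzymes that ATF4 drives changed by smaller folds. ASNS, which makes asparagine, rose 1.13-fold from 77.7 ± 5.6 to 88.1 ± 4.47 TPM. PSAT1 of serine synthesis rose 1.11-fold, and PHGDH, the first enzyme of that pathway, was at 143 ± 4.16 and 140.2 ± 8.75 TPM (adjusted p = 0.685). The amino acid transporter SLC38A2 fell 1.33-fold from 231 ± 5.15 to 175 ± 28.4 TPM (limma adjusted p = 0.00286). Of 18 aminoacyl-tRNA synthetases, which charge tRNAs, 4 rose and 5 fell (6 and 3 after rescaling). TARS1, for threonine, fell 1.38-fold from 333 ± 25.6 to 242 ± 32.2 TPM. Their rises numbered 1 or 2 when either library without PF-127 at 4 h or replicate 1 without PF-127 at 1 h was left out, and their falls 3 without either library with PF-127 at 1 h. Of 15 genes of the unfolded protein response 2 rose and 1 fell (3 and 1 after rescaling, and 1 or 2 rises and 0 to 2 falls when 1 library was left out), with the chaperone HSPA5 at 254 ± 8.94 TPM at 1 h and 244 ± 6.74 TPM at 4 h (adjusted p = 0.24). Of 13 heat shock genes 2 rose and 3 fell (3 and 1 after rescaling), and 1 fell when any of 4 libraries was left out, 3 of them at 1 h. The shares of heat shock genes that rose and fell, 15.4% and 23.1%, were near those of all genes tested, 13.9% and 20.3%. For the unfolded protein response the shares were 13.3% and 6.67%. HSPA8, the constitutive HSP70, rose 1.26-fold from 1182 ± 50.9 to 1482 ± 23.0 TPM (limma adjusted p = 6.48e-04). The heat shock element GAANNTTC, which reads the same on both strands, was found in 4 of 13 heat shock promoters and in 4.54% of promoters of tested genes.

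Among antioxidant genes under NRF2, HMOX1, which degrades heme, stood first. It was at 28.2 and 27.0 TPM without and 28.7 and 27.2 TPM with PF-127 at 1 h, and at 147 and 143 TPM without and 81.1 and 77.0 TPM with it at 4 h. Both arms rose and did not overlap with 1 h, and over both arms the rise was 3.76-fold (log2 change 1.91 ± 0.16, adjusted p = 1.19e-04). GCLM, a subunit of the enzyme that starts glutathione synthesis, rose 1.69-fold from 17.4 ± 1.40 to 30.1 ± 3.44 TPM. SLC7A11, which imports cystine, rose 1.48-fold from 30.5 ± 1.12 to 45.6 ± 2.85 TPM. Neither gene had a library of 4 h within the range of 1 h. MAFG, the DNA-binding partner of NRF2, rose 1.5-fold from 35.6 ± 0.0988 to 53.8 ± 3.38 TPM (limma adjusted p = 1.53e-04). Of 15 genes tested, 6 rose and 1 fell, GCLC from 28.7 ± 1.09 to 25.0 ± 1.94 TPM, and after rescaling 7 rose and 0 fell. The antioxidant element TGACNNNGC was found on either strand in 3 of 11 promoters of the list and in 14.8% of promoters of tested genes. TXNRD1 and SRXN1, thiol reductases of the same pathway, were at 83.6 ± 2.06 and 46.7 ± 2.22 TPM at 1 h and 77.8 ± 3.43 and 43.1 ± 3.68 TPM at 4 h and did not pass.

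Of 24 genes of cholesterol synthesis and uptake tested, 14 rose, 0 fell and 10 did not pass, and 20 rose after rescaling. HMGCS1, which feeds the mevalonate pathway, was at 479 and 477 TPM without and 464 and 478 TPM with PF-127 at 1 h, and at 893 and 945 TPM without and 722 and 816 TPM with it at 4 h, 1.77-fold higher with no overlap (log2 change 0.82 ± 0.06, adjusted p = 6.79e-05). The median log2 change was 0.32 over both arms, 0.52 without and 0.11 with PF-127, and no member passed the test of a difference between the arms. The methyl oxidase MSMO1 rose 1.41-fold from 224 ± 6.88 to 318 ± 50.2 TPM. MVD of the mevalonate pathway rose 1.56-fold from 62.9 ± 4.91 TPM to 126 and 119.5 TPM without and 86.1 and 73.0 TPM with PF-127. In MVD the arm without PF-127 was the higher one at 4 h, and both arms were above 1 h. SC5D, near the end of the pathway, rose 1.37-fold from 71.8 ± 1.75 to 98.7 ± 4.45 TPM.

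Of 11 fatty acid genes, 4 rose and 0 fell (5 and 0 after rescaling). SCD, which makes unsaturated fatty acids, rose 1.39-fold from 995 ± 46.6 to 1387 ± 169.7 TPM (limma adjusted p = 2.02e-04). ACSS2, which activates acetate, rose 1.70-fold from 24.6 ± 1.52 TPM to 62.4 and 55.8 TPM without and 31.5 and 29.5 TPM with PF-127. Without replicate 2 with PF-127 at 4 h, 7 of the 11 rose. ABCA1, the cholesterol exporter and a target of LXR, rose 2.01-fold from 4.94 ± 0.224 to 10.9 ± 0.75 TPM (limma adjusted p = 4.14e-05), the only 1 of 5 LXR targets to pass. SOAT1, which esterifies cholesterol and was chosen after its value was seen, rose 3.51-fold from 6.24 ± 0.407 to 24.5 ± 3.01 TPM (limma adjusted p = 2.52e-06). The sterol element TCACCCCAC was found in 1 of 18 cholesterol promoters and in 0.407% of promoters of tested genes, on either strand.

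**Figure D3:**
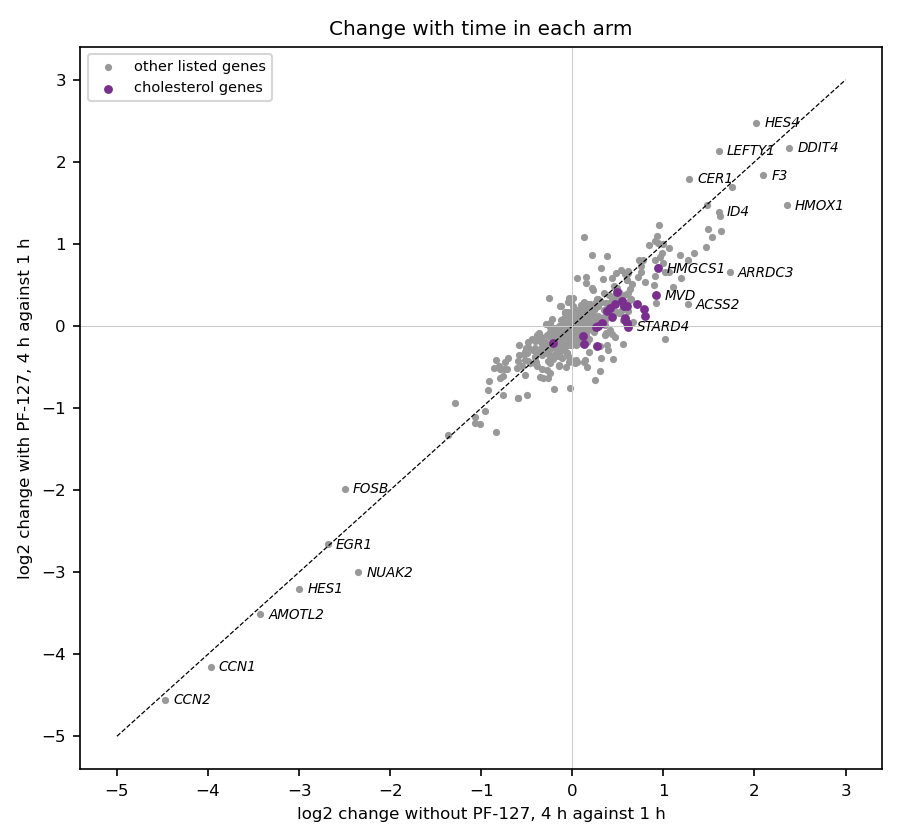
Log2 change from 1 h to 4 h without PF-127 (x axis) against that with PF-127 (y axis) for the listed genes, with cholesterol genes in purple and a dashed line where both are equal. CCN2, CCN1, AMOTL2, HES1 and EGR1 lie near the line, while HMOX1, ACSS2, ARRDC3 and most cholesterol genes lie below it.

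No change with time differed between the arms at an adjusted p under 0.05 in the 8 libraries. Limma called 0 of 18372 genes (0%) for the interaction of time and PF-127, with 1625 at an unadjusted p under 0.05 and a smallest adjusted p of 0.184. That gene was HMOX1, which rose 5.11-fold without and 2.77-fold with PF-127, a difference of log2 changes of -0.88 ± 0.08 (with minus without). For ACSS2 the folds were 2.41 and 1.2 (difference -1.01 ± 0.12, adjusted p = 0.192), and for the sterol carrier STARD4 1.53 and 1.01 (difference -0.63 ± 0.07, adjusted p = 0.192). MT1E followed with 7.60 and 4.91 (difference -0.63 ± 0.09, adjusted p = 0.248). A fit of all 16 libraries of the 4 times, which has more libraries from which to estimate the spread, called 3 genes, among them HMOX1 and ACSS2. Among the largest falls, the folds without and with PF-127 were 22.1 and 23.5 for CCN2, 15.7 and 17.8 for CCN1 and 6.44 and 6.33 for EGR1. They lay further apart for NUAK2, at 5.10 and 8.02 (difference of log2 changes -0.65 ± 0.13, adjusted p = 0.375), and for FOSB, at 5.65 and 3.95 (difference 0.52 ± 0.19, adjusted p = 0.513). A p that misses the threshold does not show that the arms act alike.

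The arrestins under the glucose sensor MondoA rose together. TXNIP, which binds thioredoxin and limits glucose uptake, was at 11.5 to 13.5 TPM at 1 h, and at 33.5 and 37.0 TPM without and 27.0 and 26.8 TPM with PF-127 at 4 h, 2.33-fold higher (adjusted p = 1.26e-04). ARRDC4 rose 2.16-fold from 5.62 ± 1.11 to 13.2 ± 0.741 TPM. ARRDC3 rose 2.28-fold from 9.69 ± 1.54 TPM to 32.1 and 30.3 TPM without and 16.7 and 17.7 TPM with PF-127. These 3 arrestins made up the 3 rises among 5 genes tested, and MLXIP (MondoA) and its partner MLX did not pass. Genes of hypoxia and glycolysis had no shared direction, with 6 rises and 7 falls among 24 (7 and 5 after rescaling). The glucose carrier SLC2A1 rose 1.32-fold from 86.6 ± 6.53 to 115 ± 15.1 TPM. VEGFA, an angiogenic factor, rose 1.37-fold from 9.17 ± 0.461 to 12.9 ± 0.660 TPM. BNIP3, a mitophagy receptor, fell 1.80-fold from 35.5 ± 2.24 to 19.3 ± 2.09 TPM (limma adjusted p = 3.58e-05), and HK2, hexokinase, fell from 66.6 ± 2.45 to 48.9 ± 2.85 TPM.

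Of 13 genes tested in the Nodal pathway list, 7 rose, 0 fell and 6 did not pass (9 rises after rescaling), with a median log2 change of 0.51. The list leaves out the Nodal co-receptor TDGF1, which fell and is counted below with the pluripotency factors. LEFTY1, a secreted Nodal inhibitor and Nodal target, was at 7.77 and 10.3 TPM without and 9.78 and 9.73 TPM with PF-127 at 1 h, and at 30.2 and 28.5 TPM without and 49.8 and 43.1 TPM with it at 4 h. Libraries with PF-127 were the higher ones at 4 h, and over both arms the rise was 3.66-fold (log2 change 1.87 ± 0.13, adjusted p = 4.06e-05). CER1, which binds and blocks Nodal and BMP ligands outside the cell, rose 2.91-fold from 4.95 ± 0.930 TPM to 12.3 and 11.5 TPM without and 22.2 and 21.5 TPM with PF-127 (adjusted p = 8.43e-05). NODAL itself, a ligand, rose 2.12-fold from 19.4 ± 0.997 to 42.6 ± 6.22 TPM. LEFTY2, the other Lefty inhibitor, rose 1.89-fold from 26.0 ± 2.62 to 49.9 ± 4.39 TPM. SMAD7, the inhibitory SMAD, rose 1.97-fold from 8.86 ± 0.737 to 18.5 ± 2.18 TPM. In each of these 5 genes all libraries of 4 h were above those of 1 h. The receptor genes ACVR1B and ACVR2B did not pass, at 13.0 ± 0.741 and 30.3 ± 0.626 TPM at 1 h and 11.4 ± 0.343 and 28.3 ± 1.54 TPM at 4 h. By 24 h the means of LEFTY1 and NODAL were higher still, 123 ± 55.2 and 80.6 ± 33.1 TPM, with a wide spread over the 4 libraries.

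Of 7 BMP targets tested, 6 rose and 0 fell, with a median log2 change of 0.88. ID4, which blocks basic helix-loop-helix factors, was at 32.8 and 31.0 TPM without and 30.4 and 30.4 TPM with PF-127 at 1 h, and at 101 and 97.0 TPM without and 79.0 and 83.3 TPM with it at 4 h. The times did not overlap, and the rise was 2.82-fold (log2 change 1.5 ± 0.05, adjusted p = 2.19e-06). ID1, of the same family, rose 1.79-fold from 462 ± 36.7 to 827 ± 98.6 TPM. ID2, another ID gene, rose 1.81-fold from 16.8 ± 0.914 to 31.7 ± 6.32 TPM. The ID genes thus moved in 1 direction, without overlap of the times. The homeobox gene MSX2 rose 2.63-fold from 0.449 ± 0.268 to 2.82 ± 0.722 TPM. The ligand BMP4 rose 1.92-fold from 4.45 ± 0.634 to 9.45 ± 1.22 TPM. BAMBI, a decoy receptor, rose 1.84-fold from 13.8 ± 1.11 to 26.5 ± 4.15 TPM. The counts of rises were 6 for BMP and 7 for Nodal whichever 1 library was left out. ID1 and ID4 were higher at 1 h and 4 h than at 0 h, where they were at 186 ± 17.8 and 6.14 ± 1.42 TPM.

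Pluripotency factors changed by 2-fold at most, and most calls were rises. NANOG was at 42.9 and 46.8 TPM without and 47.1 and 47.4 TPM with PF-127 at 1 h, and at 89.2 and 92.2 TPM without and 96.2 and 94.4 TPM with it at 4 h, a 2-fold rise with no overlap (log2 change 1.00 ± 0.04, adjusted p = 3.28e-06). SOX2, a partner of OCT4, rose 1.52-fold from 420.0 ± 9.35 to 641 ± 51.8 TPM. ZIC2, a zinc finger factor, rose 1.85-fold from 23.4 ± 1.48 to 44.7 ± 8.89 TPM. These rises were free of overlap between the times. POU5F1 was at 188 ± 22.4 TPM at 1 h and 179.7 ± 14.5 TPM at 4 h (adjusted p = 0.683), and its reads may be shared with near-identical pseudogenes. FGF2, the growth factor that sustains hESC, fell 1.55-fold from 97.2 ± 1.81 to 62.6 ± 7.05 TPM. The Nodal co-receptor TDGF1 fell 1.37-fold from 807 ± 15.8 to 588 ± 25.2 TPM. Of 17 tested, 8 rose and 3 fell, and none of 3 genes of the primitive streak tested (MIXL1, FGF8, FGF4) passed in limma, with MIXL1 at 1.83 ± 0.571 and 1.97 ± 0.483 TPM.

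**Figure D4:**
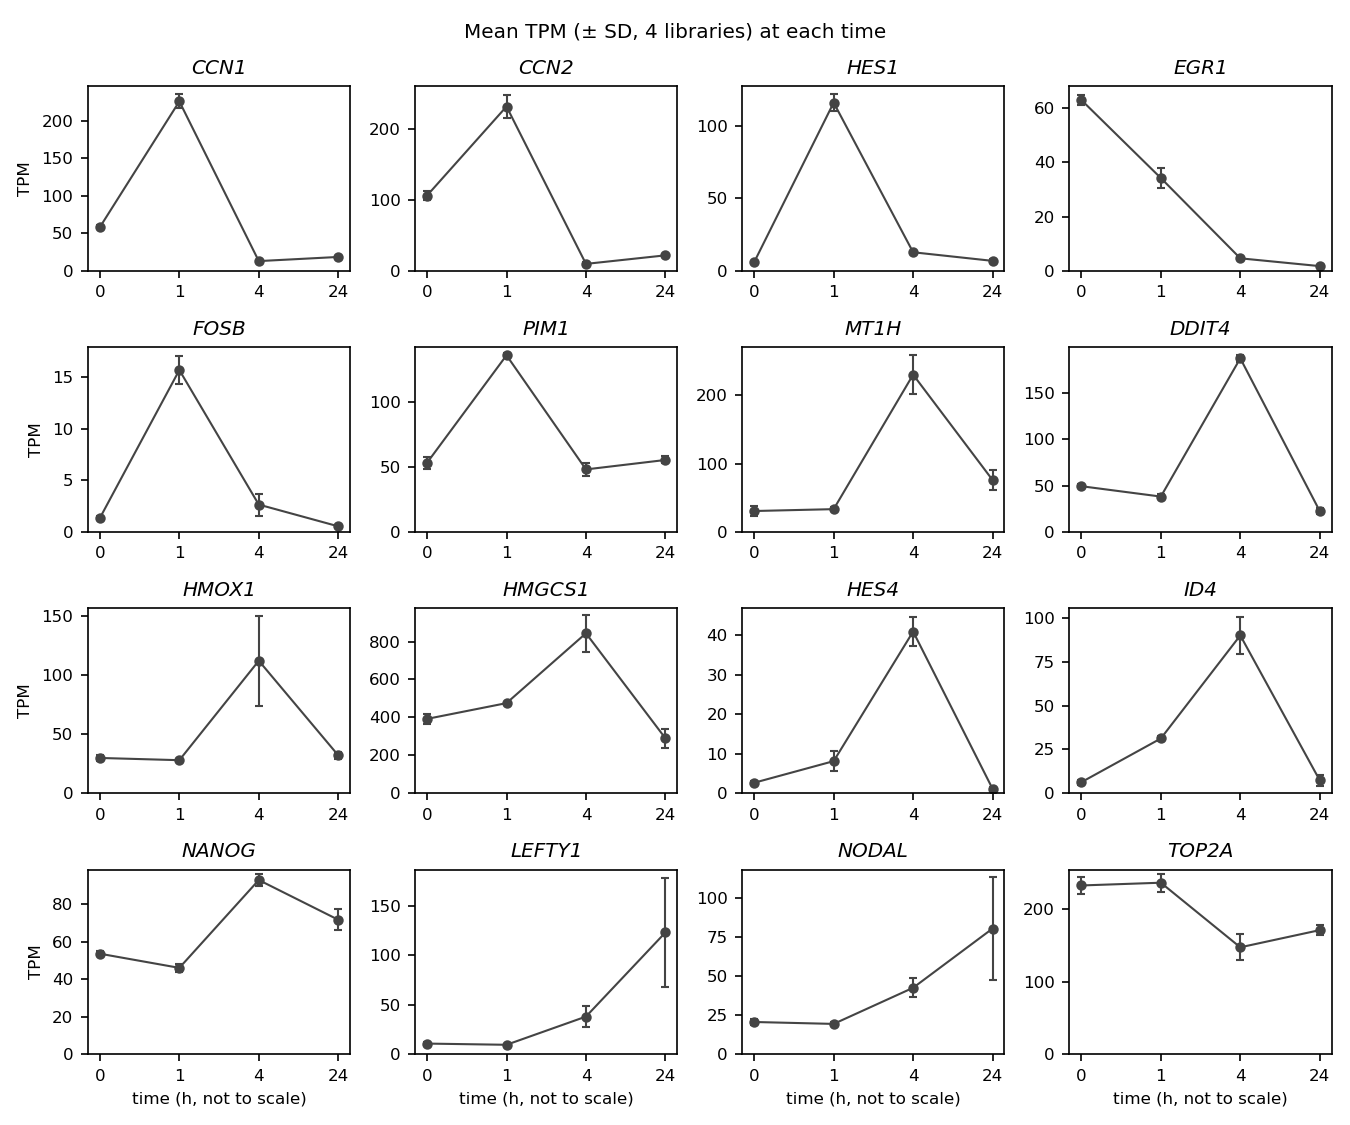
Mean TPM with SD over the 4 libraries of each time (both arms) at 0, 1, 4 and 24 h for 16 genes; the hours are evenly spaced and not to scale. CCN1, CCN2, HES1, FOSB and PIM1 have their highest mean at 1 h, MT1H, DDIT4, HMOX1, HMGCS1, HES4, ID4 and NANOG at 4 h, and LEFTY1 and NODAL at 24 h.

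Several regulators outside these pathways were among the 14 largest rises. LIMCH1, an activator of non-muscle myosin, rose 5.04-fold from 1.92 ± 0.131 to 13.8 ± 1.78 TPM (limma adjusted p = 2.52e-06). EPHA4, an ephrin receptor, rose 4.68-fold from 3.83 ± 0.293 to 21.6 ± 1.03 TPM (limma adjusted p = 8.22e-07). The forkhead gene FOXB2 rose 4.88-fold from 1.81 ± 0.275 to 12.7 ± 1.2 TPM. All 3 were at a few TPM at 1 h. GRHL3, an epidermal transcription factor, rose 4.33-fold from 1.48 ± 0.215 to 9.75 ± 1.21 TPM. SSTR1, a somatostatin receptor, rose 4.46-fold from 6.67 ± 0.626 TPM to 40.7 and 40.3 TPM without and 27.1 and 27.0 TPM with PF-127. The bitter taste receptor gene TAS2R5 and the natriuretic peptide gene NPPA rose 4.70-fold and 4.36-fold, to 7.37 ± 2.38 and 9.08 ± 2.64 TPM. The next 4 genes were chosen after their values were seen. CYP26A1, which degrades retinoic acid, rose 3.97-fold from 3.89 ± 0.793 to 18.8 ± 5.57 TPM. The cytokine signal inhibitor SOCS2 rose 3.34-fold from 9.93 ± 0.696 to 35.5 ± 2.25 TPM. Both were above 1 h in every library of 4 h. The adrenergic receptor ADRA2A rose 3.49-fold from 10.8 ± 1.09 to 40.3 ± 6.39 TPM. FOXB1, a relative of FOXB2, rose 3.46-fold from 2.20 ± 0.341 to 10.1 ± 1.90 TPM.

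Most mitotic genes were lower at 4 h. Of 18 tested, 16 fell and 0 rose, also after rescaling, with a median log2 change of -0.37, and 15 to 17 fell when 1 library was left out. TOP2A, which untangles chromosomes, fell 1.61-fold from 237 ± 12.3 to 147 ± 18 TPM (log2 change -0.69 ± 0.05, adjusted p = 6.08e-05). The centromere motor CENPE fell 1.57-fold from 26.3 ± 0.810 to 16.6 ± 2.59 TPM. The kinase AURKA fell 1.54-fold from 119.9 ± 7.16 to 78.0 ± 10.7 TPM. Every library of 4 h was below every one of 1 h in these genes. The spindle protein TPX2 fell 1.44-fold from 278 ± 4.33 to 194 ± 8.20 TPM. PLK1, a mitotic kinase, fell 1.34-fold from 109 ± 3.91 to 81.5 ± 4.07 TPM. Survivin (BIRC5) and CENPF did not pass, with BIRC5 at 113 ± 3.95 and 109 ± 3.35 TPM. Of 17 genes of G1/S and replication, 8 fell and 0 rose, and after rescaling 4 fell and 1 rose. Without any 1 of 5 libraries, 3 of them at 1 h, 4 or 5 fell. CCNE1, cyclin E, fell 1.43-fold from 57.2 ± 3.03 to 39.7 ± 2.20 TPM. PCNA, the replication clamp, fell 1.24-fold from 529 ± 30.2 to 427 ± 21.3 TPM, while MCM3, of the replicative helicase, was at 378 ± 9.69 and 383 ± 10.3 TPM (adjusted p = 0.716). In bulk RNA, fewer cells in a cell cycle phase and less RNA per cell cannot be told apart. Of 15 replication-dependent histone genes 3 rose (20%, against 13.9% of all genes tested) and 0 fell, with 2 to 4 rises when 1 library was left out, and their RNAs mostly lack the polyA tail that these libraries select for. Of 19 ribosome biogenesis genes 3 fell and 0 rose (3 and 1 after rescaling), and the share that fell, 15.8%, was below the 20.3% of all genes tested. GNL3 was among them and fell 1.27-fold from 226 ± 13.5 to 178 ± 17.9 TPM.

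Circadian clock genes had 6 rises and 1 fall among 14, with a median log2 change of 0.26. BHLHE40 (DEC1), a clock repressor that many stimuli induce, rose 2.79-fold from 6.85 ± 0.175 to 21.1 ± 3.03 TPM (log2 change 1.48 ± 0.07, adjusted p = 5.91e-06). BHLHE41 (DEC2) rose 1.97-fold from 1.02 ± 0.140 to 2.97 ± 0.208 TPM. PER2 and CRY2, the feedback repressors, rose 1.55-fold and 1.46-fold, to 4.52 ± 0.299 and 9.79 ± 0.551 TPM. PER1, their faster relative, was at 12.4 ± 0.758 and 11.4 ± 0.764 TPM (adjusted p = 0.211). The E-box CACGTG, the clock's motif, lies in the promoters of BHLHE40 at -245 to -240 and BHLHE41 at -48 to -43. It also lies in that of TEF, another listed gene that rose, at -195 to -190. PER1, which did not pass, has it at -173 to -168, and PER2, which rose, has no match. The motif was found in 9.74% of promoters of tested genes, and its share over the clock list was not counted. Among genes linked to glucocorticoids and FOXO factors, 3 rose and 4 fell of 9. When 1 library was left out, 2 or 3 rose and 3 or 4 fell. The falls were those of CITED2, FKBP5, SGK1 and KLF15, and the rises those of SESN3, TSC22D3 and IRS2. SESN3, which restrains mTORC1, rose 3.30-fold from 8.37 ± 0.526 to 29.9 ± 2.05 TPM (limma adjusted p = 1.18e-06). TSC22D3 (GILZ) rose 1.78-fold from 23.6 ± 2.18 to 42.7 ± 1.97 TPM. Both rose in all libraries of 4 h against those of 1 h. CITED2, a CBP/p300-binding regulator, fell 2.09-fold from 89.1 ± 3.59 to 42.8 ± 9.08 TPM (limma adjusted p = 1.66e-04).

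Adhesion and surface genes were mixed. Of 17 integrin, laminin and matrix genes, 4 rose and 3 fell (4 and 1 after rescaling, and 1 fall without either library without PF-127 at 4 h or replicate 1 without PF-127 at 1 h). These rises and falls were 23.53% and 17.65% of the list, against 13.9% and 20.3% of all genes tested. The fibronectin receptor subunit ITGA5 rose 1.31-fold from 9.71 ± 0.0724 to 13.0 ± 0.322 TPM. Of 13 epithelial junction genes 6 rose and 1 fell (7 and 1 after rescaling), with DSP (desmoplakin) 1.30-fold higher and E-cadherin (CDH1) 1.2-fold higher, from 160.0 ± 8.46 to 192 ± 8.47 TPM. Their rises numbered 3 without replicate 1 with PF-127 at 1 h and without replicate 2 of the libraries without PF-127 at 1 h or at 4 h. Of 8 interferon response genes 5 fell and 0 rose (4 and 0 after rescaling), with IFIT1 1.64-fold lower, from 2.72 ± 0.543 to 1.27 ± 0.333 TPM. Of 15 p53 targets 3 rose and 4 fell (4 and 2 after rescaling), with 2 or 3 falls when 1 library was left out. The shares, 20% and 26.7%, stand beside 13.9% and 20.3% of all genes tested. PLK2, a stress-induced kinase, fell 1.75-fold from 5.90 ± 0.365 to 2.98 ± 0.620 TPM. The apoptosis gene BBC3 (PUMA) rose 1.42-fold from 8.66 ± 1.43 to 12.6 ± 0.602 TPM. Of 8 WNT targets 3 rose and 1 fell (2 or 3 rises and 0 or 1 fall when 1 library was left out), AXIN2 rising 1.27-fold from 26.9 ± 2.05 to 34.4 ± 3.98 TPM. Of 11 paraspeckle genes 4 rose and 0 fell, RBM14 1.40-fold from 71.9 ± 2.89 to 101 ± 6.65 TPM, and the RNA scaffold NEAT1 was at 3.44 ± 0.366 TPM at 1 h and 4.15 ± 0.232 TPM at 4 h (adjusted p = 0.0962). Among 13 mitochondrial mRNAs 2 rose and 0 fell, MT-CO1 1.17-fold and MT-ND4L 1.16-fold, and 6 rose without replicate 1 of the libraries without PF-127 at 1 h. The 2 rises are 15.4% of these mRNAs, near the 13.9% of all genes tested.

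Markers of other cells stayed low beside those of hESC. The summed level of 9 stromal markers was 193 to 209.8 TPM at 1 h and 160.0 to 199 TPM at 4 h, most of it COL1A1 and THY1, with DCN, LUM, POSTN and COL3A1 under 1 TPM at both times and DCN at 0 in all libraries of 4 h. Of 5 tested, 1 rose and 2 fell (2 and 1 after rescaling), THY1 falling 1.35-fold from 101 ± 3.29 to 74.9 ± 4.18 TPM. Whichever 1 library was left out, 1 of the 5 fell, and without replicate 2 with PF-127 at 4 h 3 rose. The 8 amnion and trophoblast markers, led by KRT7, summed to between 6.72 and 8.14 TPM at 1 h and between 7.81 and 10.6 TPM at 4 h, with CGA at 0 in all libraries of 4 h, and GATA2 rose from 0.315 ± 0.130 to 1.68 ± 0.381 TPM (adjusted p = 0.00208). The 8 neural markers summed to between 81.0 and 88.3 TPM at 1 h and between 64.0 and 80.9 TPM at 4 h, led by TUBB3, which fell 1.33-fold from 60.3 ± 2.65 to 45.4 ± 5.52 TPM, while NEUROD1 was at 0 throughout and FABP7 rose 1.51-fold. The 4 measured markers of definitive endoderm summed to between 0.921 and 1.67 TPM at 1 h and between 1.2 and 2.37 TPM at 4 h, with SOX17 at 0 in every library of 4 h. The part of such cells in the changes above was not tested.

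The protein-coding genes that changed most had, by median, a shorter genomic span and fewer exons than those tested. Protein-coding genes tested had a median genomic span of 33.1 kb and a median of 8 exons in GENCODE 29. For rises of at least 2-fold the medians were 13.9 kb and 3 exons, and for falls of at least 2-fold 19.0 kb and 5 exons. Over all calls the rises had a median of 29.3 kb and 6 exons and the falls 43.7 kb and 10 exons. Transcripts differed less in length, with a median of 3567 bases for genes tested. For rises and falls of at least 2-fold it was 3190 and 3336 bases, and over all calls 4124 and 3768 bases. Long non-coding RNAs made up 23.1% of genes tested, 21.3% of the rises and 11.9% of the falls, but 40.4% of rises and 33.9% of falls of at least 2-fold. Genes with a larger fold also had a lower level: the median over protein-coding genes was 13.7 TPM for those tested and 8.27 and 10.1 TPM for rises and falls of at least 2-fold. These are descriptions of the called genes with no test.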

How the data were processed

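Per the submitters' processing notes, reads were handled with FastQC 0.11.9, Trim Galore 0.6.7, cutadapt 4.1, STAR 2.7.10a, featureCounts 2.0.1, DESeq2 1.36.0 and R 4.2.0, on GRCh38. The step that made the TPM values deposited by the authors, the strand setting and the counts per library are not given in the sources used here.

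Columns were assigned to samples by their names. Limma 3.58.1 in R 4.3.3 was fitted to log2(TPM + 1) of 8 libraries, with terms for time and PF-127, a mean trend in the empirical Bayes step, two-sided tests and Benjamini-Hochberg adjustment over genes with at least 1 TPM in at least 2 libraries. The scripts were tested on simulated data. The interaction was fitted to the same libraries.

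Members and lists were chosen with earlier results of these data known. Of 565 genes in 38 lists, 471 were tested; 15 with a repeated symbol were left out of list counts, and 6 are not analysed here. The naming rule took called, non-overlapping genes of at least 5 TPM (14 rises, 14 falls) and up to 5 called members a list; other genes, among them members that did not pass, were named after their values were seen. Some genes, among them a few that this rule took, are not reported here. Promoters are RefSeq's (GRCh38.p14), matched by symbol for 11310 of 14216 symbols.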

Additional observations from a re-analysis of the deposited data

Results flagged for a closer look

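The change of HMOX1 from 1 h to 4 h differed between the arms in a limma fit of all 16 libraries of the 4 times. Its log2 rise was 2.35 without and 1.47 with PF-127, a difference (with minus without) of -0.88 ± 0.08 (adjusted p = 0.00703). Both libraries with PF-127 at 4 h, at 81.1 and 77.0 TPM, lay below both without it, at 147 and 143 TPM. In the fit of the 8 libraries of 1 h and 4 h alone the same difference had an adjusted p of 0.184.

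ACSS2 also differed between the arms in the fit of 16 libraries. Its log2 rise was 1.27 without and 0.26 with PF-127, a difference of -1.01 ± 0.12 (adjusted p = 0.0300), and the 8 libraries alone gave an adjusted p of 0.192. At 4 h it was at 62.4 and 55.8 TPM without and 31.5 and 29.5 TPM with PF-127. The third gene called in that fit has no symbol in the table and is not named.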

How the results depend on the processing

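The count of genes called for the change with time was 6298 and stayed within 1.5 times of that under 10 alternatives, between 5316 (filter of 5 TPM) and 6898 (16 libraries). Without each library in turn it was between 4806 and 6211. It was 3829 in the libraries without PF-127 alone and 1462 in those with PF-127 alone, which have 4 libraries each. The replicate block gave 5924 calls, 5776 of them shared, but the numbers do not pair the samples: deviations of same-numbered libraries correlated between -0.023 and 0.047. The interaction had 0 calls, 3 with 16 libraries, and between 0 and 10 without each library, the 10 being without replicate 1 with PF-127 at 4 h; the cause was not tested. The difference in mitochondrial share was between 1.32 and 2.85 percentage points without each library. For 219 genes taken by the naming rule or added to it, of which 198 were called, no call changed direction in 4362 comparisons, while 263 calls were lost, 79 of them in the arm with PF-127 alone and 37 in the arm without it alone, and 17 were gained. Some of the 219 genes that the text gives as changed lost their call in a fit of both arms. Under rescaling and without single libraries these were CNN2, MYH9, MYL9 and TPM1. GCLC lost its call under rescaling and without mitochondrial mRNAs. MT-ND4L lost it without single libraries and with no filter, MT-CO1 with no filter and PSAT1 with 16 libraries. JUND, IRS2 and KLF15, also given as changed, are not among the 219 and were not followed singly. Depth is unknown, so genes of few TPM cannot be given a counting error.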
